A study of Mus musculus with 22 samples.

Results

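Ankrd1 and 8 other genes of the muscle stress response were followed across 22 RNA sequencing libraries of E13.5 mouse embryo hearts. The 9 genes were taken by name: Ankrd1, Ankrd2, Ankrd23, Csrp3, Xirp1, Xirp2, Fhl1, Fhl2 and Atf3, out of 54356 genes in all. Embryos of the C57BL/6 strain carried a conditional knockout of Prdm16 (cKO) or were littermate controls, which the labels call Mock or WT. The cKO was compared with control in the whole heart (3 libraries each), the isolated left ventricle (4 each) and the isolated right ventricle (4 each). The promoter that drove the deletion, and whether ventricles were pooled or shared a heart, are not given in the sources used here. The series counts its hearts in pairs of cKO and littermate, without labelling the members of any pair. Nothing in the labels says that each library is a separate embryo, so the p-values measure the spread between these libraries.

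The genes belong to a system by which striated muscle senses load. ANKRD1, ANKRD2 and ANKRD23 are the muscle ankyrin repeat proteins, which bind titin in the sarcomere and can also enter the nucleus. CSRP3 is a LIM domain protein of the Z-disc, XIRP1 and XIRP2 are actin-binding proteins of the intercalated disc, and FHL1 and FHL2 are LIM-only adaptors that bind titin and signalling proteins. ATF3 is a transcription factor induced by stress signals. Ankrd1 is a well known target of the Hippo pathway, in which YAP or TAZ activates genes together with TEAD factors at MCAT elements. Fhl2 is a known target of the serum response factor SRF, which binds the CArG box.

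The promoters of Ankrd1, Fhl2 and Fhl1 are shown, since the cKO effect on Ankrd1 and Fhl2 differed between the ventricles and the starts of Fhl2 and Fhl1 are compared later. Capitals mark MCAT elements in Ankrd1 and CArG boxes in Fhl2 and Fhl1. The sequences are RefSeq windows of the GRCm38.p6 build, 250 bases before to 50 bases after an annotated start, and both strands were searched. The Ankrd1 window is chr19:36119795-36120094 on the minus strand, where GENCODE places starts at 36119910 to 36120099, within or just upstream of the window. The Fhl2 windows are chr1:43196712-43197011 (upstream start) and chr1:43163912-43164211 (downstream start), both on the minus strand. The Fhl1 window is chrX:56779433-56779732 on the plus strand, at an internal start.
Ankrd1: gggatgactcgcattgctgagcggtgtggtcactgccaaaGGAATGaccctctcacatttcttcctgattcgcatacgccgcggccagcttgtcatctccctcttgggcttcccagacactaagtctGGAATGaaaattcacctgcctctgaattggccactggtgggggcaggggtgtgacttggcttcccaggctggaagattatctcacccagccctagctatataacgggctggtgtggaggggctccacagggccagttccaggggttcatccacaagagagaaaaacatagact
Fhl2 upstream start: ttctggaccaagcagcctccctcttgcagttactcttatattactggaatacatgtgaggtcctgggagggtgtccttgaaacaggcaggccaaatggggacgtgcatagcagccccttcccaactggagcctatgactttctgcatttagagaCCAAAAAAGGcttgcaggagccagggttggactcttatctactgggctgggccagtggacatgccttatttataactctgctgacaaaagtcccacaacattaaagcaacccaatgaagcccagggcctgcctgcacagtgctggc
Fhl2 downstream start: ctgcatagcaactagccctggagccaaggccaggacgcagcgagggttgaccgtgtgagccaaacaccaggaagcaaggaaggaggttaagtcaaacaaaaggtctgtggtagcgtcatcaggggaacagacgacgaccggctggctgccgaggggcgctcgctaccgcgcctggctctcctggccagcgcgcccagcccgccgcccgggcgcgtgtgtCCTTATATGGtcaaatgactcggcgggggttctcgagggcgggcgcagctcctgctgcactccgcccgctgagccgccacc
Fhl1 internal start: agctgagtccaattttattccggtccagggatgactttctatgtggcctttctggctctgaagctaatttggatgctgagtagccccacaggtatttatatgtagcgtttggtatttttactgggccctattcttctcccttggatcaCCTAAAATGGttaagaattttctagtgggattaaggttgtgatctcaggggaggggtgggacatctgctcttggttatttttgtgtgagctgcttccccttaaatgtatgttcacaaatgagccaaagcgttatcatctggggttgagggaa
In the Ankrd1 window the MCAT element (CATTCC, here as its reverse complement) began at positions -210 and -123, counted from the start base as 0. An MCAT match was found in 14.7% of 32851 promoter windows of this length, and 1.36% held 2 or more. Both Ankrd23 windows also held 1 each, at -120 and 36. The CArG box began at -96 and -31 in the upstream and downstream Fhl2 windows and at -102 in the Fhl1 window, and 1.63% of all windows held one. Positions are counted from the RefSeq start base, which is 36119844 for Ankrd1, 43196761 for upstream Fhl2 and 56779683 for Fhl1. At each of these starts GENCODE also places a transcript start upstream of the marked matches, so these can lie within a transcript's span. Within these 4 windows no match overlapped a match of the other motifs searched. The TATA box was searched as TATAAA in its exact letters (13.6% of all windows). It began at -28 in the upstream Fhl2 window, at -156 in the Fhl1 window and at -29 in the Ankrd2 window. The E-box, bound by basic helix-loop-helix factors, was searched as CANNTG (72.3%). The NKX element was searched as AAGTG (46.4%), and GATA sites as AGATAA (11.2%). GATA matches began at -47 in the Ankrd1 window, at -62 in the upstream Fhl2 window and at -216 in an Ankrd23 window. AP-1 sites were searched as TGANTCA (7.81%). The core of the cyclic AMP response element was searched as TGACG (20.8%), and it was found at -7 in the Atf3 window, at -31 in a Csrp3 window and at -137 in the downstream Fhl2 window. Of the 9 genes, 8 had at least 1 window, 12 windows in total, and Xirp1 was not matched. A match describes the letters only, and binding was not measured.

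Expression is given as TPM (transcript abundance scaled to transcript length and library), and tests were run on estimated read counts with edgeR's quasi-likelihood F test, with p adjusted over all genes tested and called under 0.05. Whole heart libraries held 38590751 to 62004017 assigned reads and ventricle libraries 14508722 to 22830716. As a check of the labels, Prdm16 was lower in the cKO in each tissue, by log2 fold changes of -1.04 in the whole heart, -1.19 in the left and -0.75 in the right ventricle, and its groups did not overlap in any tissue in TMM-normalised log2 CPM (counts scaled to library size, with a further scaling between libraries). Mean Prdm16 was 3.22 to 4.3 TPM in the cKO groups and 5.54 to 7.42 TPM in the controls. In TPM the left ventricle groups overlapped, with 5.75 in cKO 1 and 5.37 in control 1. Cardiomyocyte markers were abundant in all groups, with sums over 6 genes of 16000 to 26997 TPM. The 8 skeletal muscle markers summed to 2.9 to 11.3 TPM, and Myod1, Myf5 and Pax7 were each listed at 0 in some libraries of every group. Whole heart control 1 stood apart in the genes called without it (1292 in place of 773). Right ventricle control 2 stood apart in the mesenchyme markers, whose sum reached 1186 TPM there against a lowest right ventricle control of 503 TPM. Calls among the 9 genes that changed without them are given both ways.

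Csrp3 and Ankrd1 were by far the most abundant of the genes, and their order in TPM summed per gene was the same in all groups. Csrp3 averaged 1039 to 1362 TPM over the 6 groups and Ankrd1 294 to 912 TPM. Libraries of these neighbours overlapped in the whole heart cKO only. Their order depends on which transcript models are counted. A short Csrp3 model of 362 bases was given 26.3% to 56.0% of Csrp3 TPM. The 877-base model Csrp3-201 alone averaged 594 to 712 TPM. That was above Ankrd1 summed over its 6 models in left ventricle controls (610 against 294 TPM) and below that sum in the other groups. The sum includes nonsense-mediated decay and retained-intron models, so it is an unlike measure. No single Ankrd1 model averaged above 408 TPM (Ankrd1-201, whole heart cKO), which is below Csrp3-201 in every group. Fhl1 and Fhl2 followed at 77.0 to 142 TPM, Fhl2 first in the 3 control groups and Fhl1 first in the 3 cKO groups. Their libraries overlapped in all cKO groups and in the right ventricle control, so that order is not separated there. Xirp1 came next (35.1 to 52.2 TPM), then Atf3 and Ankrd23 (10.4 to 15.7 TPM), which overlapped in every group. Xirp2 averaged 0.230 to 0.896 TPM. Ankrd2, the skeletal muscle member of its family, was close to absent, with 0 to 8 estimated reads per library, and was not tested.

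**Figure D1:**
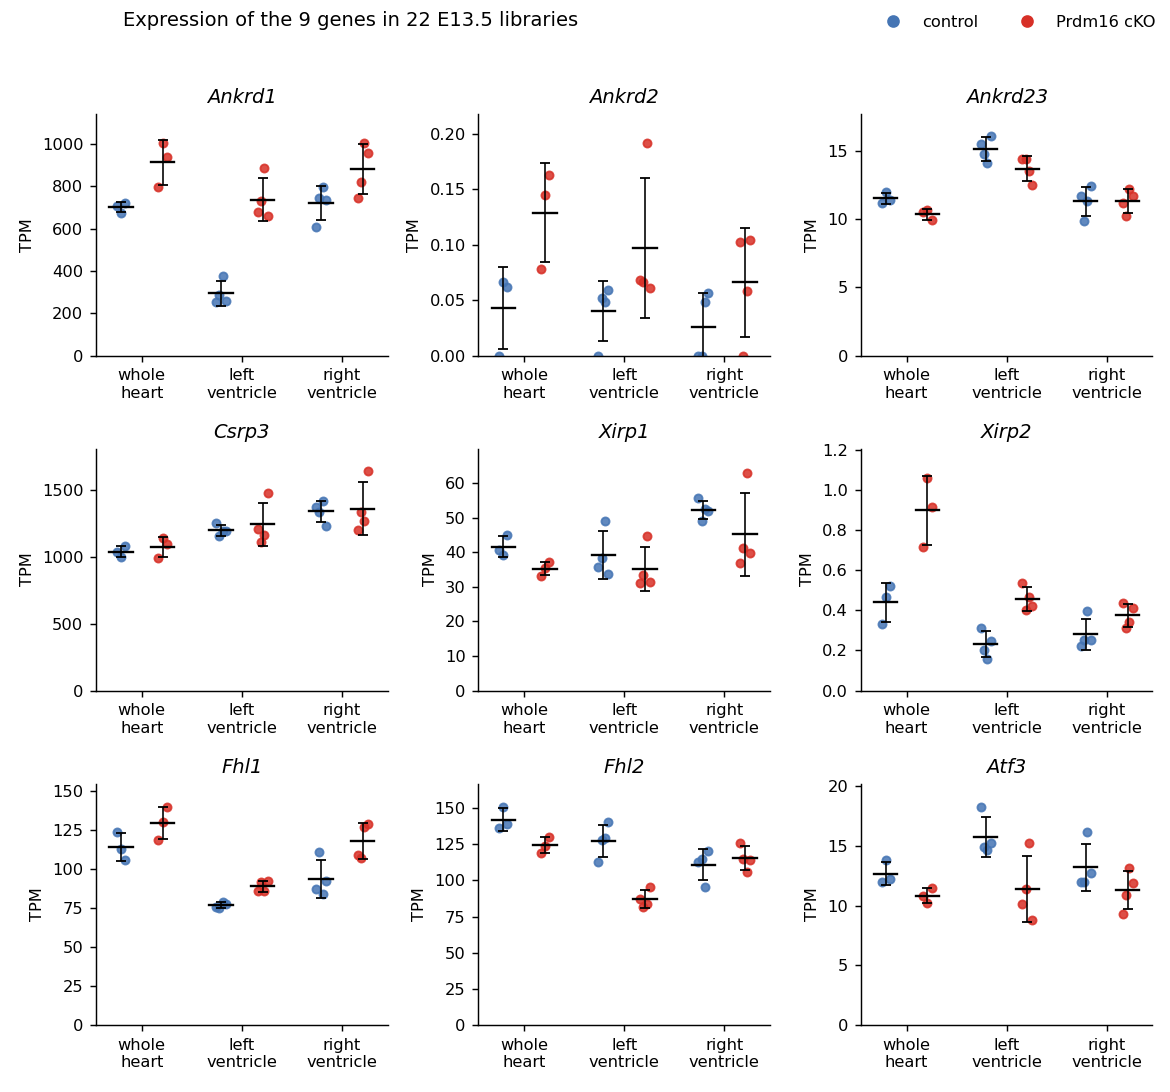
TPM (vertical axis, from 0) of each gene in every library, by tissue, with controls in blue and Prdm16 cKO in red; horizontal bars are group means and error bars are 1 SD over 3 whole heart or 4 ventricle libraries. The 4 left ventricle controls have Ankrd1 at 253 to 378 TPM, below all other libraries, and the left ventricle cKO has Fhl2 at 81.7 to 95.6 TPM, below its controls.

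In the left ventricle 5 of the 8 tested genes differed between cKO and control, 2 higher and 3 lower, where 25.6% of all genes tested did. In the whole heart 3 of 8 differed (1 higher, 2 lower; 4.03% of all genes), and in the right ventricle 1 of 8, which was higher (10.3%). The median log2 fold change of the 8 genes was -0.16 in the whole heart, -0.11 in the left and 0.07 in the right ventricle, against 0.01, -0.00 and -0.01 over all genes. In TMM-normalised log2 CPM, cKO and control libraries did not overlap for 5 of 8 genes in the left ventricle (29% of all genes), 6 in the whole heart (26.7%) and 1 in the right ventricle (12.7%). The genes did not move in 1 direction. Ankrd2 did not pass the filter on low counts, and the other 8 did in both fits.

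Ankrd1 was low in the left ventricle of controls and rose in the cKO to near the level of the right ventricle. The gene (ENSMUSG00000024803.9) lies on chromosome 19, 36111961 to 36120099, minus strand, GRCm38. In left ventricle controls it had 253, 284, 378 and 260 TPM, and in the cKO 676, 729, 885 and 657 TPM. Every cKO library was above every control library. The means were 294 ± 57.6 and 737 ± 104 TPM (SD, n = 4 each), a 2.52-fold difference (log2 fold change 1.33, SE 0.14, adjusted p = 2.45e-06).

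Right ventricle controls had 609, 746, 795 and 736 TPM of Ankrd1 and the cKO 746, 819, 1003 and 957 TPM. The groups met at 746 TPM, and the difference of 0.32 on the log2 scale (95% interval 0.06 to 0.59) was not called (adjusted p = 0.155). It was called when the model also held a block for each replicate number (adjusted p = 0.00165), although no label ties the numbers to pairs. Whole heart controls had 707, 674 and 720 TPM and the cKO 795, 1002 and 939 TPM. These groups did not overlap, yet the difference of 0.33 missed the threshold (SE 0.09, adjusted p = 0.0858), and it was called with DESeq2 (adjusted p = 0.00181), with no filter on low counts (0.0311) and without whole heart cKO 1 (0.0293).

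The difference between the ventricles was itself tested. The cKO effect on Ankrd1 exceeded that of the right ventricle by 1.01 on the log2 scale in the left one (SE 0.19, adjusted p = 0.0133). It was 1 of 2 calls among the 8 genes, 1 in each direction, where 1.43% of all genes were called (0.462% higher, 0.973% lower). With length-scaled counts it was 0.97 (adjusted p = 0.0613). Leaving out each library in turn gave 0.92 to 1.16, with adjusted p from 0.00404 to 0.0378.

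Seen across the heart, the right ventricle of controls had 2.53-fold more Ankrd1 than the left (left over right, log2 -1.34, SE 0.14, adjusted p = 5.80e-06). In the cKO the right ventricle mean was 881 ± 119 TPM against 737 ± 104 TPM in the left, and the log2 difference of -0.33 (95% interval -0.60 to -0.07) was not called (adjusted p = 0.0706). It was called with no filter on low counts (0.048), with the 2 groups fitted alone and with the block for replicate number (0.00317). Leaving out left ventricle cKO 3 (0.0363) or right ventricle cKO 1 (0.0338) also gave a call. In each of the 4 ventricle groups the library numbered 3 had the highest Ankrd1, and no label says what the numbers share.

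Ankrd23, a relative of Ankrd1 that also binds titin, was not called by the main edgeR fits in any comparison of cKO with control. In the left ventricle the controls had 15.5, 14.8, 14.1 and 16.1 TPM and the cKO 12.5 to 14.4 TPM, so the groups overlapped. The log2 fold change was -0.21 (95% interval -0.38 to -0.03, adjusted p = 0.0997), and it was -0.37 in the whole heart (adjusted p = 0.17) and -0.01 in the right ventricle (adjusted p = 0.983). Between control ventricles it was opposite to Ankrd1, with 15.1 ± 0.887 TPM in the left and 11.3 ± 1.04 TPM in the right (log2 0.33, adjusted p = 0.0135). In the cKO this difference was 0.13 (adjusted p = 0.296). Other settings called Ankrd23 in the whole heart (all 22 libraries in one model, -0.38, adjusted p = 0.0273) and between the cKO ventricles (limma, 0.26, adjusted p = 0.0205).

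Fhl2, a LIM-only adaptor enriched in the heart, moved opposite to Ankrd1 in the left ventricle. The gene (ENSMUSG00000008136.14) lies on chromosome 1, 43123074 to 43196984, minus strand. Left ventricle controls had 113, 128, 129 and 140 TPM and cKO libraries 87.5, 81.7, 83.8 and 95.6 TPM. The groups did not overlap. Fhl2 fell by 0.59 on the log2 scale (SE 0.07, adjusted p = 2.10e-05), with means of 128 ± 10.9 TPM in controls and 87.2 ± 6.1 TPM in the cKO. On the right side the groups overlapped, at 113, 115, 95.6 and 120 TPM in controls and 126, 115, 106 and 114 TPM in the cKO (log2 0.11, 95% interval -0.04 to 0.25, adjusted p = 0.439).

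The cKO effect on Fhl2 in the left minus the right ventricle was -0.69 (SE 0.11, adjusted p = 0.00276). Fhl2 of the whole heart also fell, from 142 to 124 TPM (log2 -0.29, adjusted p = 0.0454), a call lost without any of 5 of the 6 libraries (adjusted p up to 0.171) and kept without whole heart control 1. Between ventricles, Fhl2 did not pass the test in controls (log2 0.15, adjusted p = 0.157) and its left over right value in the cKO was lower than 0 (-0.54, adjusted p = 4.32e-05).

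The 2 annotated starts of Fhl2, whose promoters are printed above, differed in how far apart the left ventricle groups lay. Transcripts from the upstream start (base 43196761 to 43196984) had 13.7, 19.2, 20.0 and 23.9 TPM in left ventricle controls and 4.24, 0.719, 1.96 and 4.61 TPM in the cKO. Their share of all Fhl2 was 12.1% to 17.1% in controls and 0.880% to 4.85% in the cKO, so the groups were far apart. The downstream start (base 43163961) had 99.6, 109, 109 and 116 TPM in controls and 83.3, 81.0, 81.9 and 91.0 TPM in the cKO, also without overlap. In the right ventricle the upstream share was 24.3% to 32.9% in controls and 15.4% to 29.7% in the cKO, which overlapped. For the whole heart it was 17.5% to 34.7% in controls and 7.07% to 12.8% in the cKO, without overlap. The mean upstream share was lower in the cKO in each tissue, at 3.22% against 14.9% in the left ventricle, 21.7% against 28.1% in the right and 10.3% against 23.8% in the whole heart. These starts were singled out after their values were seen, are estimates from reads shared between transcripts, and were not tested.

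Fhl1, its X-linked relative, was raised in the right ventricle. The gene (ENSMUSG00000023092.16) lies on chromosome X, 56731787 to 56793346. Right ventricle controls had 87.6, 111, 84.1 and 92.8 TPM and cKO libraries 109, 107, 127 and 129 TPM. In TPM control 2 lay above 2 cKO libraries, and in TMM-normalised log2 CPM the groups did not overlap. In CPM scaled to library totals alone, control 2 (194) lay just above cKO 1 (193). Fhl1 rose 1.27-fold (log2 0.35, SE 0.07, adjusted p = 0.0038), with means of 93.9 ± 12 and 118 ± 11.9 TPM, and leaving out each library in turn gave 0.27 to 0.40, all called. In the left ventricle it had 75.6, 75.1, 79.3 and 78.0 TPM in controls and 86.4, 91.8, 86.0 and 92.6 TPM in the cKO. These groups did not overlap either, but the log2 difference of 0.16 did not pass (95% interval 0.03 to 0.30, adjusted p = 0.103), except where the 2 groups were fitted alone (0.00501). The cKO effects of the ventricles did not differ by their own test (-0.18, 95% interval -0.38 to 0.01, adjusted p = 0.454).

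Fhl1 was higher on the right side in both genotypes (left over right -0.37 in controls, adjusted p = 0.0014, and -0.55 in the cKO, adjusted p = 1.98e-05). In the right ventricle, cKO libraries had more than controls of the transcripts that begin at an internal start (base 56779437 to 56779819), whose window above holds a CArG box. That start had 14.1, 23.6, 16.7 and 18.6 TPM in right ventricle controls and 29.5, 28.3, 37.6 and 46.1 TPM in the cKO, without overlap. In the left ventricle it had 2.65 to 9.94 TPM in controls and 6.24 to 17.0 TPM in the cKO. The first start (base 56731787 to 56732129) had 69.4 ± 6.65 and 76.5 ± 5.38 TPM in right ventricle controls and cKO, which overlapped. The whole heart differed from this, with the internal start at 69.5 TPM in the cKO and 76.6 TPM in controls (overlapping) and the first start at 50.6 and 29.3 TPM (not overlapping). This split too was looked at after its values were seen and was not tested.

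**Figure D2:**
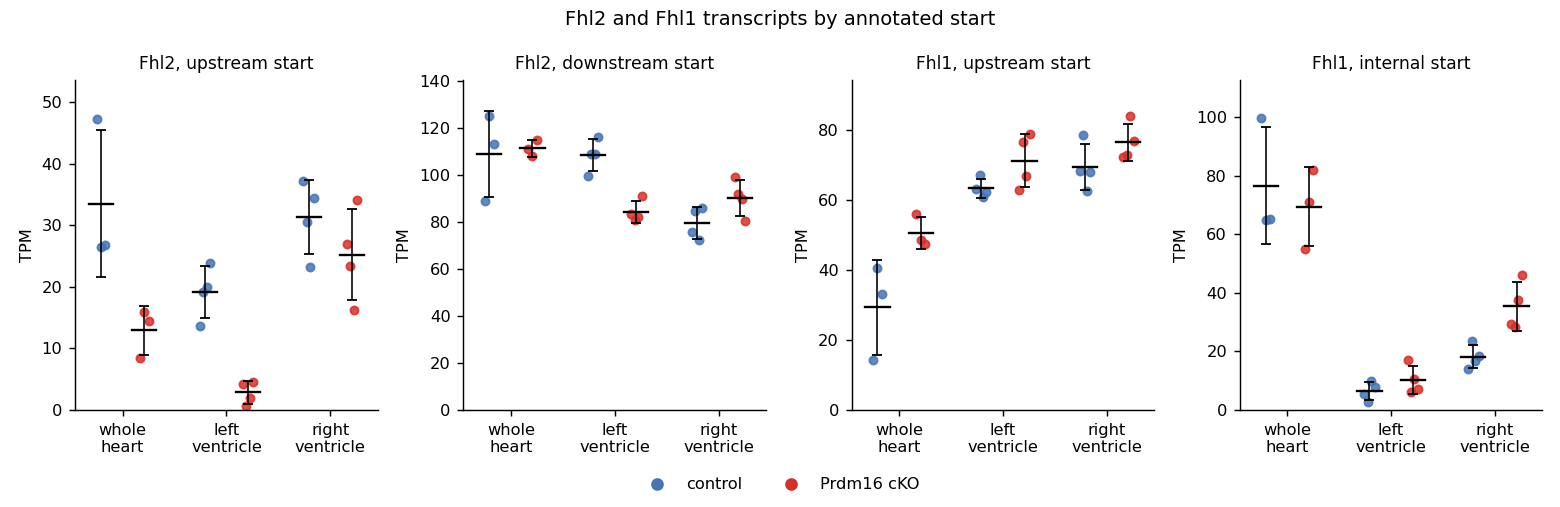
TPM (vertical axis, from 0) of transcripts grouped by annotated start, for Fhl2 (2 starts) and Fhl1 (the 2 most used of 4), in controls (blue) and Prdm16 cKO (red); points are libraries, horizontal bars are means and error bars 1 SD over 3 or 4 libraries. The upstream start of Fhl2 lies at 0.719 to 4.61 TPM in the left ventricle cKO, and the internal start of Fhl1 is higher in all 4 right ventricle cKO libraries than in the controls.

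The Xin-repeat genes moved apart from each other. Xirp2 (ENSMUSG00000027022.13, chromosome 2, 67446002 to 67526614) was low, at 0.311, 0.202, 0.159 and 0.247 TPM in left ventricle controls. It had 0.535, 0.400, 0.468 and 0.421 TPM in the cKO, above every control, and rose 2.03-fold (log2 1.02, SE 0.20, adjusted p = 0.00125). Whole heart controls had 0.333, 0.464 and 0.523 TPM and the cKO 0.717, 1.06 and 0.916 TPM, again without overlap (log2 1.05, adjusted p = 0.0434). These values rest on 37 to 87 estimated reads per left ventricle library and 82 to 381 per whole heart library, and the whole heart call was lost without any of 5 of the 6 libraries (adjusted p up to 0.185), control 1 being the exception. Right ventricle controls had 0.221, 0.250, 0.395 and 0.254 TPM and the cKO 0.437, 0.312, 0.339 and 0.410 TPM. The log2 difference of 0.42 was not called (adjusted p = 0.217), and without control 3, the highest, it was 0.66 (adjusted p = 0.0368).

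Xirp1 (ENSMUSG00000079243.3, chromosome 9, 120013755 to 120023598) was lower in the cKO, by less. In CPM scaled to library totals, left ventricle controls had 209, 226, 219 and 200 and cKO libraries 174, 190, 194 and 183, without overlap (log2 -0.22, SE 0.06, adjusted p = 0.00731). The whole heart had 230, 212 and 233 in controls and 178, 186 and 192 in the cKO (log2 -0.30, adjusted p = 0.0292), and the right ventricle 232 to 256 and 214 to 242 (log2 -0.08, adjusted p = 0.458). The whole heart call was lost without any of the 3 cKO libraries or control 3 (adjusted p up to 0.142). Xirp1 was lower on the left side in controls (-0.26, adjusted p = 0.0036) and in the cKO (-0.40, adjusted p = 4.63e-05). CPM is used because TPM of Xirp1 turned on 1 short transcript model, given 10.8, 12.4 and 24.8 TPM in the libraries numbered 3 of the left ventricle cKO, left ventricle control and right ventricle cKO and 0 in the other 9 libraries of those groups, while all 4 right ventricle controls had 9 to 14.4 TPM of it. On length-scaled counts the left ventricle call was lost (adjusted p = 0.492), as were both calls between ventricles (adjusted p = 0.118 and 0.0707).

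Csrp3, the muscle LIM protein, did not pass the test in any comparison of cKO with control. Left ventricle controls had 1251, 1153, 1197 and 1190 TPM and cKO libraries 1212, 1115, 1162 and 1480 TPM. The groups overlapped, and the log2 difference was -0.01 (95% interval -0.15 to 0.13, adjusted p = 0.929). It was 0.03 in the right ventricle (-0.12 to 0.17) and -0.04 in the whole heart (-0.15 to 0.07), so changes beyond those bounds lie outside the intervals. Csrp3 was lower on the left side in controls (-0.23, adjusted p = 0.0311) and in the cKO (-0.27, adjusted p = 0.009). The control call was lost without any of 5 of the 8 libraries (adjusted p up to 0.1) and with library totals, length-scaled counts or limma (0.0883 to 0.335). The cKO call was lost with length-scaled counts (0.0659) and limma (0.347).

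Atf3 was not called higher in the cKO of any tissue. In CPM scaled to library totals, left ventricle controls had 19.5, 22.6, 21.0 and 22.4 and cKO libraries 16.2, 11.6, 20.2 and 14.9, so 1 cKO library lay among the controls. The log2 fold change was -0.46 (SE 0.16, adjusted p = 0.0477). This call was lost without any of 7 of the 8 left ventricle libraries (adjusted p up to 0.15) and with library totals (0.0532). It was -0.30 in the whole heart (adjusted p = 0.084; called without whole heart control 1, adjusted p = 0.0432, and with DESeq2, 0.036) and -0.27 in the right ventricle (adjusted p = 0.343).

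**Figure D3:**
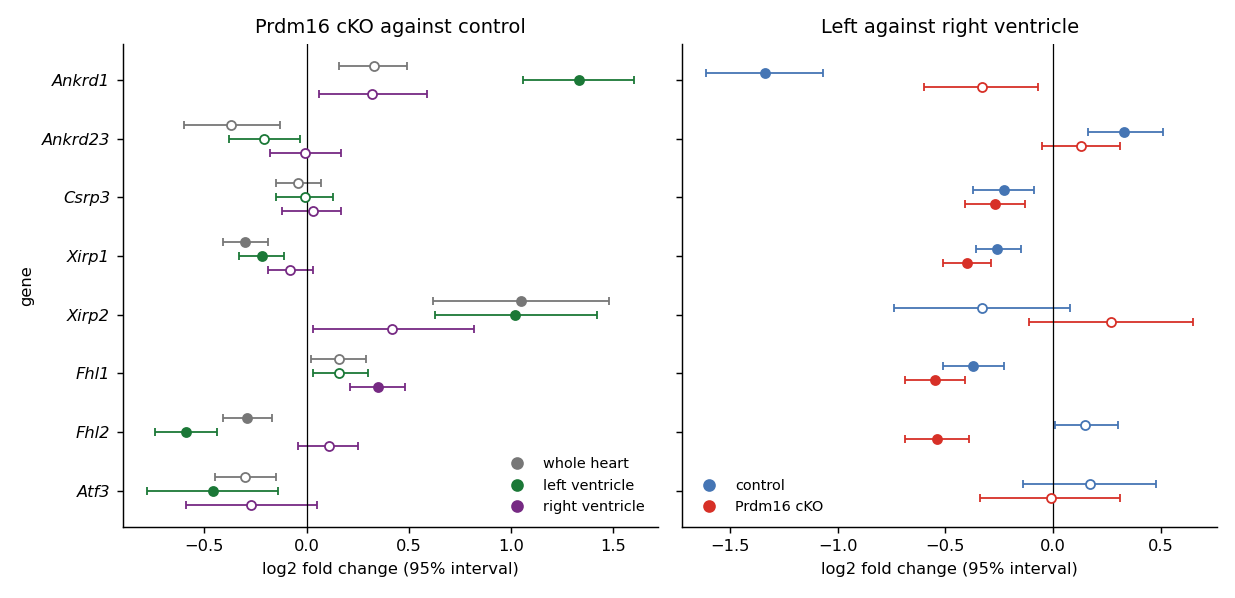
Log2 fold changes (horizontal axis) with 95% intervals from the standard error of the edgeR fit, for the 8 tested genes, as cKO over control in whole heart (grey), left (green) and right (purple) ventricle in the left panel, and left over right ventricle in control (blue) and cKO (red) in the right panel; filled points passed adjusted p under 0.05. Ankrd1 stands at 1.33 in the left ventricle and 0.32 in the right, and its left over right difference is -1.34 in controls and -0.33 in the cKO.

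Between the ventricles 5 of the 8 genes differed in controls, 1 higher in the left and 4 lower, where 21% of all genes tested differed (9.02% higher, 12% lower). In the cKO 4 of 8 differed, all lower in the left, where 32.8% did (18.3% lower). The medians were -0.24 and -0.30 against 0.00 and 0.02 over all genes. Over all genes the split in controls was 1483 higher and 1979 lower, and with library totals 2290 and 1294. In the cKO it was 2387 and 3011, and 3931 and 2004. The Ankrd1, Fhl1 and Xirp1 differences kept their sign with library totals. These comparisons share their libraries with those of cKO against control, so the values stand side by side and are not independent of them.

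Because the tissue was not sorted, fewer cells of a type and less RNA per cell cannot be told apart. In the left ventricle 3 of 6 cardiomyocyte markers were called lower and none higher, their sum being 19664 to 21126 TPM in the cKO and 20881 to 22330 TPM in controls. The list moved in both directions in TPM. Actc1 had 7783 to 8415 TPM in the cKO against 7056 to 7724 in controls, and mean Nkx2-5 was 75.1 against 61.8 TPM. The 7 atrial cardiomyocyte markers summed to 13861 to 16038 TPM in the cKO and 7229 to 8521 TPM in controls, with 6 higher. That sum was mostly Nppa, Myl4 and Myl7. Nppa averaged 4501 TPM in left ventricle controls and 1993 TPM in whole heart controls, so the sum is not specific to atrial cells here. Sln, also on the list, averaged 0.591 TPM in the left ventricle cKO and 0.885 TPM in its controls. Of the 6 endothelial and endocardial markers 4 were higher (316 to 347 against 257 to 271 TPM), and of the 5 epicardial markers 4 (115 to 133 against 82.2 to 93.6 TPM). In the right ventricle 5 of 7 atrial markers were higher (9115 to 11203 against 5843 to 6778 TPM), as were 4 of 6 erythroid markers (24517 to 47276 against 10201 to 25461 TPM). Erythroid markers of the left ventricle summed to 28449 to 72452 TPM in the cKO and 20231 to 38425 TPM in controls, with 1 of 6 higher. The mitochondrial share of reads was lower in the cKO without overlap in the left ventricle (5.34% to 5.91% against 6.3% to 6.88%) and the right (5.65% to 6.46% against 6.65% to 7.38%), and overlapped in the whole heart. The whole heart had 5 of 7 atrial markers called higher and 3 of 6 cardiomyocyte markers called lower. The part of these shifts in the results for the 9 genes was not tested.

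Genes listed for the Hippo pathway, to which Ankrd1 belongs as a target, were all higher in the cKO where they were called. The list holds regulators and targets together, so its counts do not measure the activity of the pathway. Of 22 pathway members and targets of YAP, TAZ and TEAD, 9 were higher and 0 lower in the left ventricle cKO, with a median log2 fold change of 0.22. Over all genes 12.3% were higher and 13.4% lower. In the right ventricle 5 were higher and 0 lower (median 0.12; 6.12% and 4.19% of all genes), and without control 2 there were 9 and 0. In the whole heart 4 were higher and 0 lower (median 0.01; 1.96% and 2.07%), and without control 1 there were 5 and 0. All these shares are those of the full fits, and none is given for the fits without control 1 or control 2.

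Amotl1, a junction protein that binds YAP, had 28.7 TPM in left ventricle controls and rose to 43.4 TPM (log2 0.56, SE 0.04, adjusted p = 1.37e-07). Crim1, a transmembrane protein that binds growth factors, rose by 0.67 (SE 0.05, adjusted p = 1.18e-07), and Axl, a receptor tyrosine kinase, by 0.59 (SE 0.06, adjusted p = 2.20e-06). All 3 also rose in the right ventricle, by 0.23, 0.25 and 0.27 in the test on counts. Mean TPM there was 5.06 in the cKO and 4.9 in controls for Crim1, 27.2 and 23.1 for Amotl1, and 38.3 and 26.5 for Axl. The whole heart test on counts called Crim1 higher (log2 0.34, adjusted p = 0.0411). Its mean TPM was lower there, at 7.19 in the cKO and 8.39 in controls. The rise was larger in the left ventricle for Amotl1 (by 0.33, adjusted p = 0.0144) and Crim1 (by 0.41, adjusted p = 0.00966), the 2 genes of the list called in that test. Ccn2, a secreted matrix protein and common readout of YAP activity, was named after its values were seen and rose by 0.94 in the left ventricle (adjusted p = 0.0128). Nonmuscle cells also express Axl, Crim1 and Ccn2, and the endothelial and epicardial markers above moved in the same direction. Their part in these rises was not tested.

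**Figure D4:**
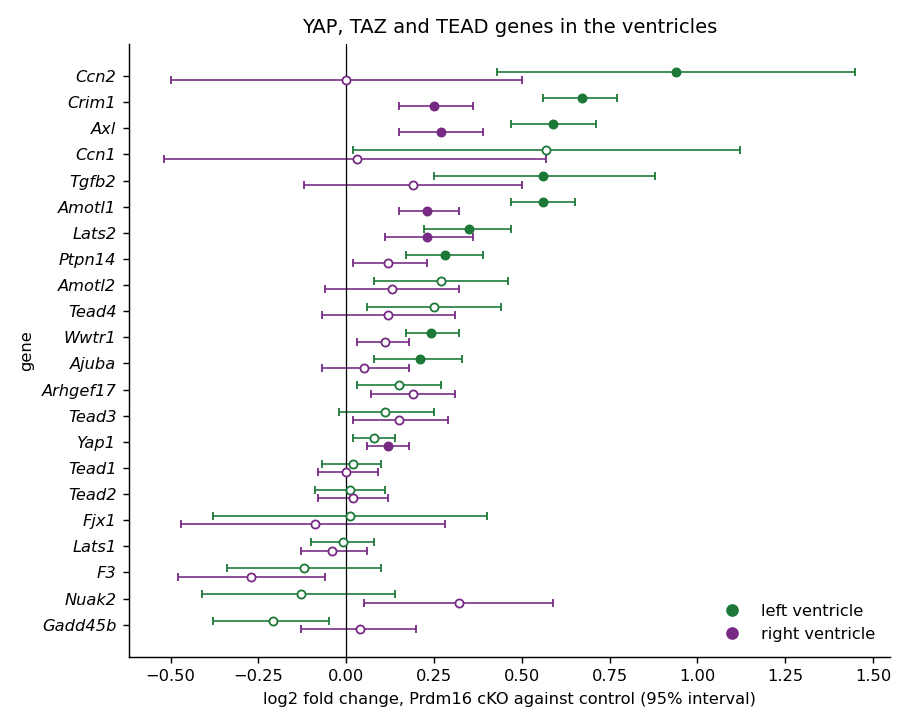
Log2 fold changes of cKO over control (horizontal axis) with 95% intervals for 22 YAP, TAZ and TEAD pathway genes in the left (green) and right (purple) ventricle; filled points passed adjusted p under 0.05. The 9 called in the left ventricle and the 5 called in the right all lie above 0.

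Of 34 tested sarcomere proteins that sense or hold load with these genes, 6 were higher and 15 lower in the left ventricle cKO (median -0.12; 12.3% and 13.4% of all genes). In the right ventricle 5 were higher and 1 lower (6.12% and 4.19%), and without control 2 the counts were 4 and 9. The shares are those of the full fit, and none is given for the fit without control 2. Trim54, a MuRF ubiquitin ligase of the sarcomere, rose from a mean of 3.78 TPM to 12.2 TPM (log2 1.58, SE 0.16, adjusted p = 2.07e-06), and Synm, an intermediate filament protein, rose by 1.28 (SE 0.07, adjusted p = 2.57e-09). Both rose in the right ventricle (1.26 and 1.21) and the whole heart (1.55 and 1.15). Trim63, another MuRF ligase, fell by 0.37 in the left ventricle (adjusted p = 3.54e-06) and stood at 0.01 in the right, and the 2 effects differed (-0.38, adjusted p = 0.00204).

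The stress transcription factor Atf3 acts with immediate early genes and the integrated stress response, and of 30 such genes 4 were higher and 2 lower in the left ventricle (median 0.00), where 12.3% and 13.4% of all genes were. Ier3 and Klf4, both immediate early genes, fell by 0.35 and 0.41 (adjusted p = 0.0113 and 0.0111). Herpud1, a gene of the endoplasmic reticulum stress response, rose by 0.29 (adjusted p = 2.82e-04) and by 0.35 in the right ventricle (adjusted p = 1.20e-04). Of the 30, 2 were higher and 0 lower in the right ventricle, where 6.12% and 4.19% of all genes were. Without control 2 the counts were 2 and 2, with no share over all genes given for that fit.

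Of 19 tested genes of the fetal and hypertrophic stress programme, 5 were higher and 7 lower in the left ventricle (median -0.09), against 12.3% and 13.4% of all genes, which also stand against the next 2 lists. Adm, the vasodilator adrenomedullin, rose from a mean of 3.88 TPM to 11.5 TPM (log2 1.49, SE 0.17, adjusted p = 5.22e-06). Mt1, a metallothionein, fell from 57.3 to 31.3 TPM (adjusted p = 5.92e-05) and Myh7, the slow myosin heavy chain, by 0.41 (adjusted p = 3.20e-05). Of 19 genes of SRF and its cofactors, 6 were higher and 3 lower. Acta1 and Acta2, the skeletal and smooth muscle actins, fell by 0.63 and 0.65 (adjusted p = 2.00e-04 and 1.84e-04), while Mylk, myosin light chain kinase, rose by 0.60 (adjusted p = 2.36e-05). Of 12 tested LIM and ankyrin repeat relatives, 2 were higher and 3 lower. Csrp2, the relative of Csrp3 found in smooth muscle and embryonic heart, fell by 0.67 (SE 0.11, adjusted p = 3.18e-04) in the left and by 0.55 (adjusted p = 0.00347) in the right ventricle, Pdlim1, a LIM protein of the Z-disc, fell by 0.25 in the left (adjusted p = 0.00441), and Ankrd46 rose by 0.19 (adjusted p = 0.00117).

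Among 11348 protein-coding genes, the pattern most like Ankrd1 over the 16 ventricle libraries was that of Gria3, a glutamate receptor subunit (Pearson r = 0.956 of TMM-normalised log2 CPM). Itga5, the fibronectin receptor subunit (0.954), Nes, the intermediate filament nestin (0.950), and Fat3, a large cadherin (0.944), were also among the 5 most alike. These r describe 4 group means as well as single libraries, share each library's depth, and carry no test. After the group means were removed, r of these 4 genes was 0.391 to 0.670. Fat3 had 1.6 ± 0.216 TPM in left ventricle controls and 3.98 ± 0.28 TPM in the cKO, and 2.97 ± 0.275 and 4.03 ± 0.406 TPM in the right ventricle. Nes had 24.3 ± 0.501 and 38.0 ± 1.55 TPM in the left ventricle and 34.8 ± 5.13 and 39.1 ± 2.2 TPM in the right. Among the other tested genes, Fhl1 had r = 0.770 with Ankrd1, Xirp2 0.57, Csrp3 0.503, Xirp1 0.274, Fhl2 -0.333, Atf3 -0.421 and Ankrd23 -0.679. Prdm16 itself had -0.773. With the group means removed, these r were 0.46 for Fhl1, -0.26 for Xirp2, 0.17 for Csrp3 and 0.55 for Xirp1. They were -0.17 for Fhl2, 0.53 for Atf3, 0.14 for Ankrd23 and -0.356 for Prdm16. The sign thus turned for Xirp2, Atf3 and Ankrd23.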

How the data were processed

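RNA from E13.5 hearts or ventricles was made into stranded mRNA libraries, per the labels' protocols. The deposited files hold estimated counts of reads and TPM per transcript. The submitters' processing notes name Salmon 1.2.1 and DESeq2 1.22.2. The deposited TPM are scaled by the authors to length and library. Of 140658 transcripts, 140137 matched GENCODE M21, and both measures were summed to 54356 genes (counts rounded). The 521 others took up to 0.204% of the reads.

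The 6 whole heart libraries (19160 genes) and the 16 ventricle libraries (one model of 4 group means, 16448 genes) were fitted with edgeR 4.0.16 in R 4.3.3 (TMM, filterByExpr, quasi-likelihood F test, Benjamini-Hochberg adjustment, threshold 0.05). Standard errors divide the absolute fold change, in log2, by the root of F, and 95% intervals are normal. On simulated counts, the test called 80% (whole heart, 18558 genes), 88% (left ventricle, 16246 genes), 86% (right ventricle, 16235 genes) and 72% (difference between ventricles, 16258 genes) of genes changed by 1 on the log2 scale. Of genes changed by 0.5 it called 38%, 66%, 68% and 54%, in the same order, so smaller changes were often missed. Likeness used TMM-normalised log2 CPM with a prior count of 2, over genes with a mean of at least 2. Starts within 1000 bases were grouped.

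The genes, the 6 lists and the tests were chosen with earlier results of these data known, so the lists are no independent support. Named were the 9 genes, Prdm16, the 3 genes of each list with the smallest p in the left ventricle, and the 5 genes most like Ankrd1, of which 1 is not reported here. Libraries were treated as independent, since no label ties numbers to litters.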

Additional observations from a re-analysis of the deposited data

Results flagged for a closer look

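The cKO effect differed between the ventricles for Ankrd1, by 1.01 on the log2 scale in the left minus the right ventricle (adjusted p = 0.0133), and for Fhl2, by -0.69 (adjusted p = 0.00276), each over 16 libraries. In 5 of 36 groups of 4 libraries, 1 library lay far from the other 3 in TPM, where chance gives about 1 in 20. Xirp1 stood at 44.6 TPM in left ventricle cKO 3 and at 63.0 TPM in right ventricle cKO 3, which Salmon gave a short Xirp1 transcript. Atf3 stood at 18.2 TPM in left ventricle control 1, which had the lowest Atf3 of its group in CPM (19.5), and at 16.1 TPM in right ventricle control 3. Ankrd2 stood at 0.192 TPM in left ventricle cKO 3, which is 3 reads. No cause was tested for these values.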

How the results depend on the processing

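Over 370 results of the 8 genes under other settings 331 kept their call and sign, and over 448 with 1 library left out 403 did. The Ankrd1 difference in the left ventricle stayed called throughout (log2 1.24 to 1.48), as did the left over right difference in controls (-1.49 to -1.27). Signs turned only where no call was made: for Csrp3 with limma on log2(TPM + 1) in the whole heart (0.05), left ventricle (0.04) and the difference between ventricles (0.03) and with library totals in the left ventricle (0.01), for Xirp1 with limma in that difference (0.08), and for Atf3 with library totals between cKO ventricles (0.06). With 1 library left out, Csrp3 ran from -0.08 to 0.01 in the whole heart, -0.08 to 0.04 in the left ventricle, -0.03 to 0.08 in the right and -0.10 to 0.02 for the difference, Ankrd23 from -0.09 to 0.03 in the right ventricle, and Atf3 from -0.17 to 0.14 between cKO ventricles.

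In the whole heart, 773 genes and 3 of the 8 were called. DESeq2 called 1657 genes and 5 of the 8, length-scaled counts 135 and 0, limma 106 and 0, and all 22 libraries in one model 2012 genes. Leaving out 1 library gave 184 to 1292 genes and 0 to 4 of the 8. In the left ventricle, length-scaled counts called 2684 genes and limma 2504, each with 3 of the 8 in place of 5. In the right ventricle they called 829 and 662 genes, and the 2 groups fitted alone 1052 (main 1696). Leaving out 1 library gave 1 to 2 of the 8 there. For the difference between ventricles (main 236) DESeq2 called 454 genes, length-scaled counts 64 with 1 of the 8, limma 38, and leaving out 1 library 125 to 358. Between control ventricles length-scaled counts called 1693 genes and limma 1310, each with 3 of the 8, and between cKO ventricles length-scaled counts 3205 with 2. The causes were not tested.

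Between cKO and control libraries of the same number, correlations of deviations were -0.12 to 0.13, too weak to show or exclude pairs by number. Right ventricle cKO 1, 2 and 3 and left ventricle cKO 2 and 4 correlated best with the control of their own number. The other ventricle cKO libraries and all whole heart cKO libraries did not. A replicate block by number called 218 genes and 0 of the 8 in the whole heart, 152 genes for the difference between ventricles, and 2 of the 8 in the right ventricle, where it called Ankrd1 (log2 0.32, adjusted p = 0.00165). It changed 5 of 48 results of the 8 genes. Between the ventricles of the cKO every library correlated best with its own number (0.05 to 0.24), a hint from the data and not from the labels, and there the block called Ankrd1 (left over right -0.33, adjusted p = 0.00317). Between the control ventricles only left ventricle control 1 correlated best with its own number, and the own-number correlations were -0.11 to 0.09.

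Chosen after seeing the data, leaving out right ventricle control 2 from the left ventricle fit gave 10 higher and 0 lower YAP, TAZ and TEAD genes. No share over all genes is given for that fit. Spearman's rho put 1 of the 5 genes most like Ankrd1 among its own first 5 (Itga5, 0.929). Depth limits Ankrd2 and Xirp2.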
